A study of Mus musculus with 6 samples.

Results

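The 10 mouse genes of lipoprotein assembly followed here in liver were Apoa1, Apoa2, Apoa4, Apoa5, Apob, Apoc1, Apoc3, Apoe, Apom and Mttp. They were taken by gene symbol from the deposited expression table, and all 10 were found among its 26123 genes. Livers came from 6 ICR mice, an outbred stock. The control group was 3 mice labelled control, for which the labels name no drug. The crizotinib group was 3 mice labelled crizotinib, an oral kinase inhibitor that acts on MET, ALK and ROS1 and is used against lung cancer. The animals had 7 days of adaptation, the stated dose was 300 mg/kg with saline as the comparison, and tissue was taken 1 week after dosing. As worded, the design text has the normal group given crizotinib, which conflicts with the labels. Groups here follow each sample's treatment label, and the direction of every comparison rests on that label. No genetic change is named for either group, and the sources used here give no age, sex or schedule of doses. Each library was 1 animal's liver as far as the labels tell; where samples are not separate animals, the p-values measure only the spread between samples.

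Lipoproteins carry cholesterol and triglyceride through plasma, and the liver makes most of their protein. Apolipoprotein B is the structural protein of very-low-density lipoprotein, and the microsomal triglyceride transfer protein encoded by Mttp loads lipid onto it in the endoplasmic reticulum. Apolipoproteins A-I and A-II are the main proteins of high-density lipoprotein (HDL). Apolipoproteins C-I, C-III, A-V and E move between particles and set how fast triglyceride is hydrolysed and remnants are taken up. Apolipoprotein M carries sphingosine-1-phosphate on HDL, and apolipoprotein A-IV travels on chylomicrons and HDL.

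Promoter windows of 4 genes are shown first because these genes had contrasting levels in crizotinib replicates 1 and 2: Apoa2 and Apoe were below every control, Apom was above every control, and Apob was not below the control range. Each window runs from 250 bases before to 50 bases after a RefSeq transcript start on GRCm38.p6, 5′ to 3′ on the gene's strand. Capitals mark matches to any of the 9 motifs searched. The windows are chr1:171224804-171225103 on the plus strand for Apoa2, chr7:19699139-19699438 on the minus strand for Apoe, chr12:7977427-7977726 on the plus strand for Apob and chr17:35131752-35132051 on the minus strand for Apom.
Apoa2: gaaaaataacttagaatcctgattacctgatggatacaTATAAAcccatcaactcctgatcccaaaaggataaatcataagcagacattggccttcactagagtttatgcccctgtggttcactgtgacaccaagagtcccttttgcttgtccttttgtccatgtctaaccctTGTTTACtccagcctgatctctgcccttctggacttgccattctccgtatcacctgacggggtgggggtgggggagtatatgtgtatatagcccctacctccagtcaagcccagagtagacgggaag
Apoe: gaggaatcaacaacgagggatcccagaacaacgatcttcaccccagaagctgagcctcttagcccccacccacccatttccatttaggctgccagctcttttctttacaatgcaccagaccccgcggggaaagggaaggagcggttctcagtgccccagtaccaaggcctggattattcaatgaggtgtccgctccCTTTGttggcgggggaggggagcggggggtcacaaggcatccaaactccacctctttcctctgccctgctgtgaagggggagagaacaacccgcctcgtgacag
Apob: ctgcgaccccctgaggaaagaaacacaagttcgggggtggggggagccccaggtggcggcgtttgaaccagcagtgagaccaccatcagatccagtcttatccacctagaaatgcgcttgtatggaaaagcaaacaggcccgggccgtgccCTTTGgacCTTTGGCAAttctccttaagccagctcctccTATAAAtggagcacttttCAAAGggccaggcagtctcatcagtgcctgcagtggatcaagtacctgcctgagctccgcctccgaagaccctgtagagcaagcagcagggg
Apom: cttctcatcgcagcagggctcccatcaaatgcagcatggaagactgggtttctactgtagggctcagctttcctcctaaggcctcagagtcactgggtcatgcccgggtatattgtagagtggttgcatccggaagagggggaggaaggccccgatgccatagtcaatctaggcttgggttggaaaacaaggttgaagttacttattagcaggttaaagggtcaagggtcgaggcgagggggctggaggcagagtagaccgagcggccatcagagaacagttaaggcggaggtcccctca

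RefSeq windows were matched for 8 of the 10 genes, Apoc1 and Apoc3 being the others, and genes with several listed starts had several windows. The motifs were searched on both strands with no mismatch. A gene was counted when any of its windows held the motif, while the share of all windows counts each window singly, so these are unlike units. The second Apoa2 window starts its transcript 3490 bases from the deposited gene start, and the further Apoe windows 567 and 790 bases from it. TATAAA was present in a window of 4 of the 8 genes (Apoa2, Apoa5, Apob and Apoe), next to 13.6% of all 32851 windows. In the windows printed, it stood at position -212 in Apoa2 and at -60 in Apob, counted from the start site; the match of Apoe lay in another of its windows. CAAAG, a part of an HNF4 site, was present in Apoa4, Apoa5, Apob, Apoe and Mttp, next to 53.9% of all windows, and the 9-base HNF4 motif CAAAGTCCA in none of the 8 (0.475% of all windows). The C/EBP motif TTGCNNAA was found in Apob and in the second window of Apoa2, not the one printed (10.8% of all windows). In Apob its match overlaps a CAAAG match. The FOX motif TGTTTAC was found in Apoa2, at -77, and in a further window of Apoe (3.65% of all windows). AGGTCA was found in a second window of Apoa2 (16.3% of all windows). TGACGT and the SP1 core CCGCCC were each found in Mttp alone among the 8 (7.51% and 35.7% of all windows), and the sterol response core TCACCCCAC in none (0.551% of all windows). The Apoa1 and Apom windows held no match to any of the 9. The RefSeq start used for Apom lies inside the deposited gene, and so does nearly all of the Apom window. Sequence before the deposited Apom start was thus almost entirely left out of the search. The matches describe letters in the window and not bound sites.

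Depth was 51123361 to 67947970 counts per library, with 20327 to 20896 genes detected. Levels below are CPM, library-scaled counts with library sizes adjusted by the trimmed mean of M values (TMM), for replicates 1, 2 and 3 in that order, unless another scale is named. Libraries differed within each group. Mitochondrially encoded genes took 44.5% of the counts of control replicate 1, against 7.47% and 17.6% in the other controls and 5.53% to 14.4% in the crizotinib libraries (two-sided exact permutation test p = 0.2, with 0.1 the smallest p possible). Crizotinib replicate 3 stood apart from crizotinib replicates 1 and 2 in the acute-phase genes, with a median over 18 genes 0.59 above the control mean on the log2 scale, where the other crizotinib libraries were both at 3.45. Hepatocyte markers were abundant throughout, with Alb, the albumin gene, between 14072 and 55633 CPM. Defining markers of intestine were at or near 0 (Lct, Rbp2 and Muc2 under 0.1 CPM in every library). Because whole liver was sequenced, fewer cells of a type and less RNA per cell cannot be told apart.

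None of the 10 genes passed the test of crizotinib against control. Transcripts of Apoc1, Apoc3, Apoa2 and Apoe were far below the controls in crizotinib replicates 1 and 2 but within the control range in crizotinib replicate 3. Apoa1 was lower than every control in all 3 crizotinib libraries. Apom was higher than every control in crizotinib replicates 1 and 2 only, and Apoa4, Apoa5, Apob and Mttp differed little on average. Called genes are those with a Benjamini-Hochberg adjusted p under 0.05 in edgeR's quasi-likelihood test over 16492 genes, of which 56 were called (0.34%). By edgeR no member had an unadjusted p under 0.05 either, where 15.3% of all genes did. That count depended on the method and the libraries. By DESeq2, 5 of the 10 had an unadjusted p under 0.05, beside 2882 genes in all where 16410 had an adjusted p. By limma voom with library weights it was 6 of the 10, beside 6169 of 16492 genes. By edgeR without crizotinib replicate 3 it was 5 of the 10, beside 4790 of 17029 genes. The fitted log2 fold change was below 0 for 7 of the 10 genes, with a median of -0.47, against a median of about 0 over all genes tested.

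**Figure D1:**
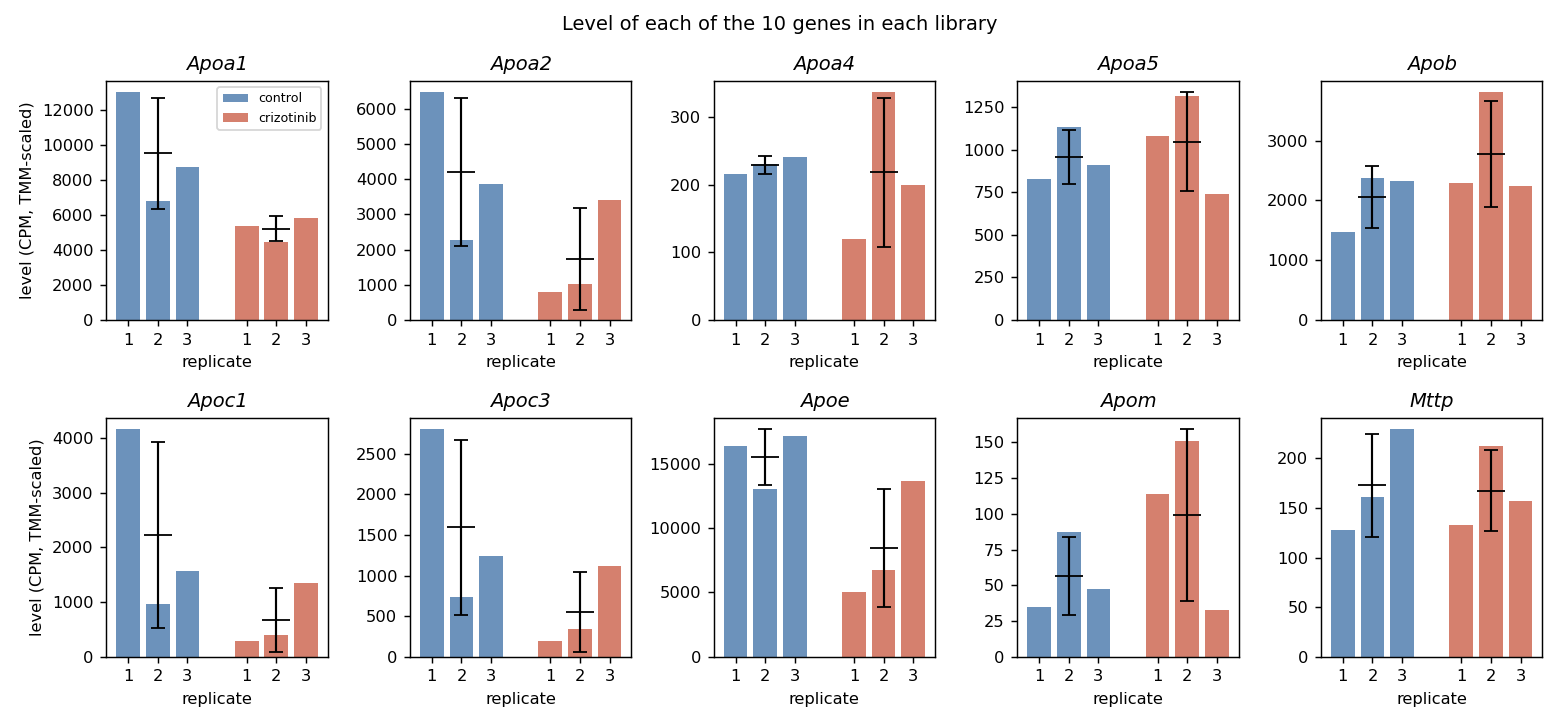
Bars give the CPM of each of the 10 genes in each library, controls on the left and crizotinib on the right of each panel; the horizontal mark and whiskers are the group mean ± SD (n = 3). Each panel has its own axis from 0. Crizotinib replicates 1 and 2 are low for Apoc1, Apoc3, Apoa2 and Apoe, while crizotinib replicate 3 is close to the controls.

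The HDL core proteins came first. Apoa1, encoding apolipoprotein A-I (ENSMUSG00000032083, chr9:46228580-46230466 on GRCm38), was at 13013, 6816 and 8746 CPM in controls and 5395, 4441 and 5847 CPM in crizotinib livers. It was the single member whose groups did not overlap, and crizotinib was the lower group. Of all tested genes, 10.3% had groups that did not overlap in that direction, so 1 of 10 was close to the background. The means were 9525 ± 3171 and 5228 ± 718 CPM (SD, n = 3 each), a log2 fold change of -0.87 ± 0.56 (SE; 95% interval -2.15 to 0.42) with an adjusted p of 0.498 by edgeR. Control replicate 1 was the highest library. On the authors' FPKM scale, which divides by transcript length and library total, the 3 controls were nearly level at 6299, 6284 and 6331, and the crizotinib libraries lay below them at 4076, 3200 and 5201. That total includes mitochondrially encoded counts, which were 44.5% in control replicate 1, so the level controls depend on the scale. By limma on log2(FPKM + 1) the log2 fold change was -0.63 ± 0.76 (SE; adjusted p = 0.777).

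Apoa2, encoding apolipoprotein A-II (ENSMUSG00000005681, chr1:171225054-171226379), was at 6460.2, 2286 and 3860.4 CPM in controls and at 797, 1017 and 3404 CPM in crizotinib livers. Crizotinib replicates 1 and 2 were below every control, and crizotinib replicate 3 lay between control replicates 2 and 3. The log2 fold change was -1.27 ± 0.73 (SE; 95% interval -2.95 to 0.40; adjusted p = 0.444 by edgeR). Within a library, the FPKM of Apoa2 relative to that of Apoa1 was 1.14, 0.772 and 1.02 in controls and 0.340, 0.527 and 1.34 in crizotinib livers. The transcripts of the 2 genes thus did not keep 1 ratio across the crizotinib libraries.

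Apoc1, encoding apolipoprotein C-I (ENSMUSG00000040564, chr7:19689481-19692660), was at 4158, 961 and 1569 CPM in controls and 280, 394 and 1342 CPM in crizotinib livers. Its mean was 2229 ± 1698 against 672 ± 583 CPM (SD, n = 3 each), and its log2 fold change of -1.73 ± 0.80 was the most negative of the 10 (95% interval -3.57 to 0.11; adjusted p = 0.354 by edgeR). The spread within groups was wide. The highest control was 4.33 times the lowest, and the highest crizotinib library was 4.80 times the lowest.

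Apoc3, encoding apolipoprotein C-III, an inhibitor of lipoprotein lipase (ENSMUSG00000032081, chr9:46232933-46235636), followed the same order of libraries at 2803, 731 and 1245 CPM in controls and 189, 346 and 1114 CPM in crizotinib livers. Crizotinib replicates 1 and 2 were again below every control and crizotinib replicate 3 was not. The log2 fold change was -1.53 ± 0.78 (SE; 95% interval -3.34 to 0.27; adjusted p = 0.397 by edgeR).

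Apoe, encoding apolipoprotein E, the ligand for receptor uptake of remnants (ENSMUSG00000002985, chr7:19696109-19699188), had the highest mean CPM of the 10. It was at 16398, 13059 and 17140.2 CPM in controls and 5011, 6733 and 13663 CPM in crizotinib livers. The controls were close together, with the highest 1.31 times the lowest, while the crizotinib libraries spanned 2.73-fold; crizotinib replicate 3 lay just above control replicate 2. The log2 fold change was -0.87 ± 0.64 (SE; 95% interval -2.36 to 0.61; adjusted p = 0.553 by edgeR).

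The size of these differences depended on which libraries were used. Without crizotinib replicate 3, the log2 fold changes of Apoc1, Apoc3 and Apoa2 were -2.75, -2.60 and -2.23, with edgeR adjusted p of 0.0623, 0.0633 and 0.0630, in a fit that called 8.83% of all genes; that of Apoe was -1.42. Without control replicate 1, the same log2 fold changes were -0.91, -0.84 and -0.82, and that of Apoe was -0.84. Without crizotinib replicate 1, the values of Apoc1, Apoc3, Apoa2 and Apoe were -1.36, -1.12, -0.92 and -0.61, and without crizotinib replicate 2 they were -1.45, -1.28, -0.99 and -0.73. With both control replicate 1 and crizotinib replicate 3 left out, Apoc1 was called (log2 fold change -1.93, adjusted p = 0.0396 by edgeR), in a fit that called 10.3% of all genes. limma voom, which gives each library a quality weight from the data, called 3 of the 10, each lower with crizotinib, and 19.5% of all genes. These were Apoc1 (-1.99, adjusted p = 0.0239), Apoa2 (-1.79, adjusted p = 0.0269) and Apoc3 (-1.92, adjusted p = 0.0297). DESeq2 on all 6 libraries called 6.73% of all genes and none of the 10. The count of 3 of 10 stood beside that background of 19.5%.

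**Figure D2:**
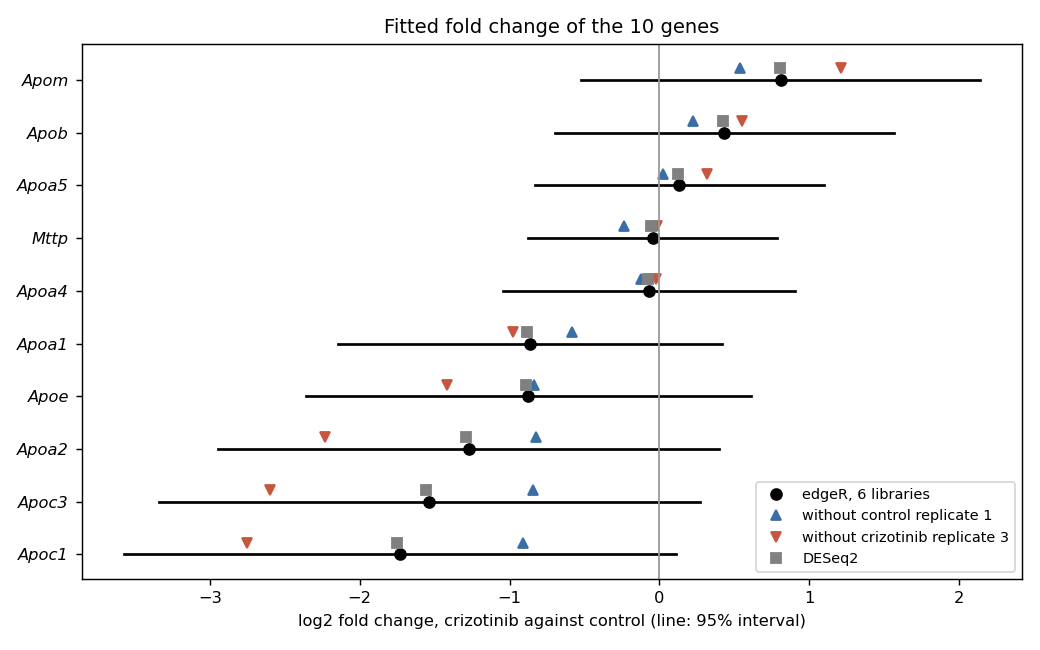
Points are the log2 fold change of each of the 10 genes, crizotinib against control, from edgeR on 6 libraries (circle, with its 95% interval), edgeR without control replicate 1 or without crizotinib replicate 3 (triangles), and DESeq2 (square). All 10 intervals include 0, and the Apoc1, Apoc3 and Apoa2 values are most negative without crizotinib replicate 3 and least negative without control replicate 1.

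Apoa5, encoding apolipoprotein A-V, which promotes triglyceride hydrolysis (ENSMUSG00000032079, chr9:46268633-46271919), was at 827, 1131 and 907 CPM in controls and 1083, 1316 and 742 CPM in crizotinib livers. The groups overlapped on both sides, and the log2 fold change was 0.13 ± 0.42 (SE; 95% interval -0.83 to 1.10). Apoa4, encoding apolipoprotein A-IV (ENSMUSG00000032080, chr9:46240696-46243459), was steady in controls on the CPM scale at 216, 230.0 and 241 CPM. By FPKM these controls were at 71.0, 144 and 119, so the steadiness depends on the scale. The crizotinib libraries of Apoa4, at 119, 336 and 199 CPM, lay on both sides of the controls, and the log2 fold change was -0.07 ± 0.42 (SE; 95% interval -1.05 to 0.91). The sign of both small values turned under at least 1 other setting.

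Apob (ENSMUSG00000020609, chr12:7977648-8016835) was at 1469, 2375 and 2331 CPM in controls and 2287, 3806 and 2242 CPM in crizotinib livers. Crizotinib replicate 2 was the highest library, and the other crizotinib libraries lay among the controls. The log2 fold change was 0.43 ± 0.49 (SE; 95% interval -0.70 to 1.56; adjusted p = 0.708 by edgeR). Mttp, encoding the lipid transfer protein that acts on apolipoprotein B (ENSMUSG00000028158, chr3:138089854-138143388), was at 128, 161 and 229 CPM in controls and 133, 212 and 157 CPM in crizotinib livers. All 3 crizotinib libraries lay inside the control range, and the log2 fold change was -0.04 ± 0.36 (SE; 95% interval -0.88 to 0.79), with a sign that turned under other settings. For Mttp, 457 of 6206 exon bases overlap the opposite-strand gene Trmt10a, which held 164 to 402 counts per library; the sources used here do not say whether counting used strand, so reads in that stretch cannot be assigned with certainty.

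Apom (ENSMUSG00000024391, chr17:35128997-35132050) was at 35.1, 87.4 and 47.2 CPM in controls and 114, 151 and 33.0 CPM in crizotinib livers. Crizotinib replicates 1 and 2 were above every control, and crizotinib replicate 3 was below every control. The log2 fold change was 0.81 ± 0.58 (SE; 95% interval -0.52 to 2.14; adjusted p = 0.539 by edgeR). Apom had the most positive fitted value of the 10.

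Per transcript length, the order of the 10 genes was much the same in every library. Apoe, Apoa1 and Apoa2 held the first 3 places by FPKM in all 6 libraries, with values from 1387 to 7197, and their order among themselves changed from library to library. Apoc1 had rank 4 in 5 libraries and rank 5 in crizotinib replicate 1, with 351 to 3344 FPKM. Apoc3 had 174 to 1654 FPKM and had rank 5 in all controls but rank 6 in crizotinib replicates 1 and 2, below Apoa5. Apoa5 had 196 to 511 FPKM. Apob (63.1 to 243 FPKM) and Apoa4 (61.4 to 165 FPKM) were neighbours whose values overlapped. Apom had 20.7 to 132 FPKM and rank 9 in 5 libraries, but rank 8, above Apoa4, in crizotinib replicate 1, and Mttp was last in all 6 libraries with 12.3 to 33.1 FPKM. Among all genes of the table, Apoe ranked between 4 and 39 by FPKM and Mttp between 909 and 1388. Counts of the 10 genes together were 3.02%, 3.51% and 3.61% of all counts in controls, and 1.56%, 1.83% and 3.48% in crizotinib livers. Of the counts of nuclear genes they were 5.45%, 3.79% and 4.38% in controls and 1.66%, 1.94% and 4.07% in crizotinib livers, so that control replicate 1 was the lowest control by the first share and the highest by the second.

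**Figure D3:**
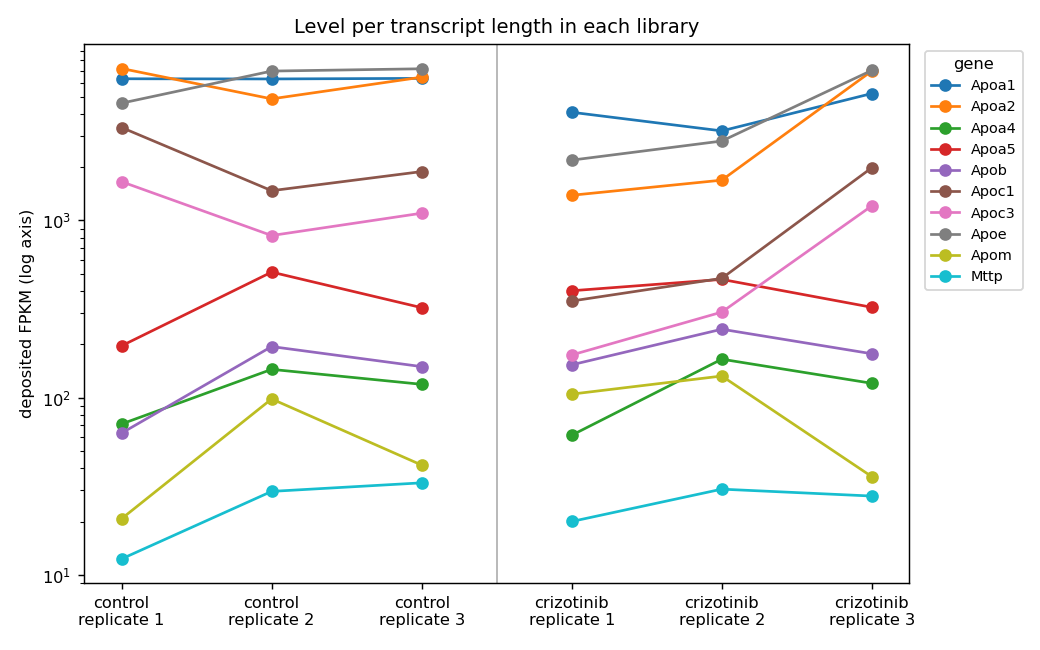
Lines join the deposited FPKM of each of the 10 genes across the 6 libraries on a log axis. Apoa1, Apoa2 and Apoe stay on top and Mttp at the bottom in every library, and the lines of Apoc1, Apoc3, Apoa2 and Apoe lie low together in crizotinib replicates 1 and 2.

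Within-library ratios of FPKM do not depend on how libraries are scaled to each other, and 9 were compared. None had groups that did not overlap, and no exact two-sided permutation p was under 0.2 (Benjamini-Hochberg adjusted 0.36 to 0.4; 0.1 is the smallest p that 20 labelings allow). Relative to Apoe, Apob was at 0.0137, 0.0279 and 0.0209 in controls and 0.0700, 0.0867 and 0.0252 in crizotinib livers. The mean log2 ratio differed by 1.42 (exact permutation p = 0.2), and crizotinib replicate 3 lay inside the control range. Mttp relative to Apob was at 0.195, 0.152 and 0.221 in controls and 0.131, 0.125 and 0.157 in crizotinib livers, a difference in log2 of -0.45 (exact permutation p = 0.2). Crizotinib replicate 3 stood just above the lowest control there. Apom relative to Apoa1 differed by 1.48 in log2 (exact permutation p = 0.2) and Apoa5 relative to Apoa1 by 0.93 (exact permutation p = 0.2). The other differences were those for Apoc3 against Apoa1 (-0.89, exact permutation p = 0.3), for Apoc1 against Apoe (-0.80, exact permutation p = 0.3), for Apoa2 against Apoa1 (-0.63, exact permutation p = 0.4) and for Apoa4 against Apoa1 (0.63, exact permutation p = 0.4). Without crizotinib replicate 3, 8 of the 9 ratios had groups that did not overlap, and without control replicate 2, 5 did. The exact permutation p of these ratios was 0.2 at the lowest in both settings, which is the smallest p possible with a library left out. Groups separate more easily with fewer libraries, and no share over other gene pairs was computed to set beside these counts. Several ratios also share Apoa1 as denominator, so they are not independent.

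The serum amyloid A proteins Saa1 and Saa2 ride on HDL beside apolipoprotein A-I during inflammation. Their summed FPKM was 0.0257, 0.173 and 0.0316 times that of Apoa1 in controls and 3.33, 4.97 and 0.123 times in crizotinib livers. In crizotinib replicates 1 and 2 the serum amyloid transcripts thus outnumbered those of Apoa1 per length, while crizotinib replicate 3 lay between control replicates 2 and 3. The mean log2 ratio differed by 4.61 (exact permutation p = 0.2). Across the 18 acute-phase reporters, 0 were called and 16 had an unadjusted p under 0.05, all higher (median log2 fold change 2.84). Lcn2, which encodes an iron-siderophore binding protein, was at 95.1, 403 and 113 CPM in controls and 8448, 10070.3 and 580.1 CPM in crizotinib livers. The 2 libraries with the highest acute-phase levels were those with the lowest Apoc1, Apoc3, Apoa2 and Apoe; the part of the acute-phase response in those values was not tested.

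**Figure D4:**
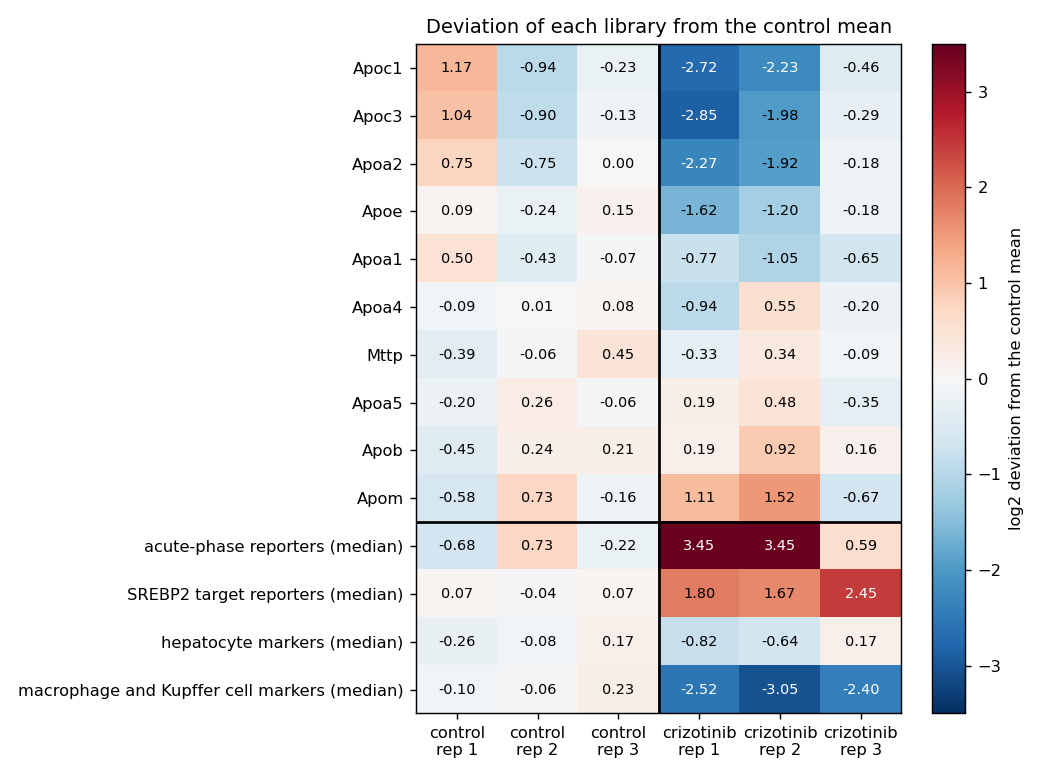
Cells give each library's log2 CPM minus the control mean for the 10 genes, and below the line the median of the same quantity over 4 gene lists. The low values of Apoc1 (-2.72 and -2.23), Apoc3, Apoa2 and Apoe in crizotinib replicates 1 and 2 stand in the columns where the acute-phase median is 3.45, and macrophage markers are low in all 3 crizotinib columns.

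Other cell types of the liver were followed through their markers. Macrophage and Kupffer cell markers summed to 413 to 548 CPM in controls and 50.4 to 86.4 CPM in crizotinib livers, and 7 of 15 were called lower (Clec4f, Cd5l, C1qb, C1qc, Cd68, Csf1r and Folr2) with none called higher. These calls depended on the libraries, since edgeR called 0 genes of the whole table without control replicate 1 or 3 and 3 when control replicate 2 or either of the first 2 crizotinib replicates was left out. Macrophages are known to make apolipoprotein E; in crizotinib replicates 1, 2 and 3 these markers summed to 83.0, 50.4 and 86.4 CPM, and Apoe was at 5011, 6733 and 13663 CPM. Stellate cell markers summed to 188 to 342 CPM in controls and 93.2 to 142 CPM in crizotinib livers, with 0 of 10 called (Colec11 -3.10 and Lhx2 -2.98 in log2 fold change). Sinusoidal endothelial markers summed to 88.9 to 245 and 55.0 to 80.0 CPM, with 0 of 10 called (Dnase1l3 -2.62, Clec4g -1.88). Erythroid markers summed to 258 to 994 and 31.7 to 197 CPM, with 0 of 6 tested called (Alas2 -3.05, Hba-a2 -3.19). Cholangiocyte markers summed to 55.8 to 104 and 95.6 to 181 CPM, with 0 of 7 tested called (Sox9 3.17, Spp1 0.77). Adipocyte markers summed to 530.3 to 2935 and 63.4 to 1088 CPM, nearly all of it Car3, with Adipoq, Plin1 and Cfd at or near 0 and 0 of 3 tested called (Cidec 1.80, Car3 -2.31). Enterocyte markers summed to 126 to 235 and 85.7 to 161 CPM, mostly Anpep and Fabp2, both also expressed in liver, with 0 of 4 tested called (Fabp2 -1.85, Slc5a1 0.53). Hepatocyte markers summed to 66873 to 78556 and 33194 to 49436 CPM, with 0 of 11 called and a median log2 fold change of -0.30. Alb was lower in every crizotinib library than in any control (log2 fold change -1.48, adjusted p = 0.359 by edgeR), and Ttr, a plasma carrier of thyroid hormone, had a log2 fold change of -1.22. The part of these cell type markers in the values of the 10 genes was not tested.

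Genes of the same cluster had differing values. On chromosome 9, Apoa1, Apoc3, Apoa4 and Apoa5 lie within 43340 bases, and their log2 fold changes were -0.87, -1.53, -0.07 and 0.13. The flanking genes Sik3 and Zpr1 had log2 fold changes of 0.29 and 0.65, with adjusted p of 0.722 and 0.503 by edgeR. On chromosome 7, Apoc1 and Apoe lie within 9708 bases. Their neighbour Apoc4, another apolipoprotein gene, was at 894, 339 and 521 CPM in controls and 139, 223 and 563 CPM in crizotinib livers (log2 fold change -0.92, adjusted p = 0.511 by edgeR), with crizotinib replicates 1 and 2 below every control. Apoc2, the next apolipoprotein gene along and named after its values were seen, was at 71.9, 26.3 and 43.5 CPM in controls and 39.8, 81.1 and 40.8 CPM in crizotinib livers (log2 fold change 0.19, adjusted p = 0.864 by edgeR), with overlapping groups. The gene model Gm44805, which overlaps both Apoc4 and Apoc2, had a log2 fold change of -1.56 (adjusted p = 0.174 by edgeR), and reads of these genes may be split uncertainly. Tomm40, on the other side of Apoe, had a log2 fold change of 0.13 (adjusted p = 0.833 by edgeR).

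Across the 6 libraries, Apoc1 and Apoc3 had nearly the same profile of log2 CPM (Pearson r = 0.994), and Apoa2 matched Apoc3 almost as closely (r = 0.992). Apoe was closest to Apoa2 (r = 0.953), Apoa1 to Apoc1 (r = 0.893), Apom to Apoa5 (r = 0.968), Apob to Apom (r = 0.743), and Apoa4 and Mttp to each other (r = 0.691). Apoa2 and Apom ran opposite (r = -0.907). These values describe 6 libraries that share their depth, scaling and group difference, and carry no test. Among 4049 other genes with a mean of at least 5 FPKM, the profiles most like Apoa2 were those of Atp5j2, Mrpl14 and Uqcc2 (r of 0.998, 0.996 and 0.996), and those most like Apoc1 were Uqcc2, Albfm1 and Uqcc3 (r of 0.998, 0.997 and 0.997). Mrs2, Ndufv3 and Rnf5 were nearest to Apoc3 (0.996, 0.995 and 0.995), and Slc46a3, Hsd17b10 and Klkb1 to Apoe (0.997, 0.997 and 0.996). Zfp707, mt-Tw and mt-Ty were nearest to Apoa1 (0.979, 0.975 and 0.974); the last 2 are mitochondrial transfer RNAs, a class of counts whose share was largest in control replicate 1. Insr and Gak were nearest to Apom (0.996 and 0.993), and Plbd1, Cul4a and Hacd3 to Apob (0.989, 0.988 and 0.983). Gosr1, Wrnip1 and Apom were nearest to Apoa5 (0.978, 0.969 and 0.968), Mbl1, Pxmp4 and Cdhr5 to Apoa4 (0.966, 0.963 and 0.960), and Ufsp2, Tmem30a and Slc39a11 to Mttp (0.972, 0.945 and 0.937). Transcript length moved with the fold change among all genes: the median log2 fold change was -0.14 over 1554 genes with under 1000 exon bases and 0.08 over 5965 genes with 5000 or more. Apoa2 and Apoc1 have 537 and 744 exon bases and Apob has 13934. With an offset for length, added after the data were seen, the log2 fold changes of Apoc1, Apoa2 and Apob were -1.66, -1.20 and 0.29.

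The wider pathway lists held 1 called gene among 129. That was Fdps, encoding farnesyl diphosphate synthase of the cholesterol pathway, at 70.9, 65.7 and 69.6 CPM in controls and 317, 345 and 441 CPM in crizotinib livers (log2 fold change 2.42 ± 0.33, adjusted p = 0.0431 by edgeR). No pathway gene was called by limma on log2(FPKM + 1), or by edgeR when any library other than crizotinib replicate 3 was left out, so the call of Fdps ended there. It belongs to 12 reporters of the sterol-sensing factor SREBP2, all of which were higher in every crizotinib library than in any control (10.7% of all tested genes had groups that did not overlap in that direction); 10 of them had an unadjusted p under 0.05, and the median log2 fold change was 2.12. Others of the list were Hmgcs1 (2.54, adjusted p = 0.0785), Sqle (2.64, adjusted p = 0.0824) and Lss (1.92, adjusted p = 0.0583). The median of the reporters was 1.80, 1.67 and 2.45 above the control mean in log2 in crizotinib replicates 1, 2 and 3, where Apoc1, for one, was at -2.72, -2.23 and -0.46; the difference between these patterns was not tested.

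Among 14 genes of lipoprotein receptors and uptake, 0 were called, and 3 higher and 1 lower had an unadjusted p under 0.05 (median log2 fold change 0.10). Beside such counts, in this list and those that follow, stands the 15.3% of all tested genes with an unadjusted p under 0.05 in either direction by edgeR. Sdc1, a proteoglycan of remnant uptake, was at 107, 143 and 91.3 CPM in controls and 303, 379 and 160.2 CPM in crizotinib livers (log2 fold change 1.30, adjusted p = 0.208 by edgeR), and Lrp5 had 0.94. Apobr, encoding an apolipoprotein B receptor of macrophages, was under 2 CPM in every library and had -1.39.

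Among 25 genes of lipoprotein assembly and secretion, 0 were called and 3 had an unadjusted p under 0.05, all higher (median log2 fold change 0.22). These were Creld2, a protein of the endoplasmic reticulum (1.47, adjusted p = 0.106), Hsp90b1, a chaperone there (1.09, adjusted p = 0.228), and Sec24d, a coat protein of vesicles that leave it (1.11, adjusted p = 0.254). Smlr1, which takes part in secretion of these lipoproteins, was next by p (-0.87, adjusted p = 0.329). P4hb, the small subunit partner of the Mttp protein, was at 752, 779.7 and 1129.7 CPM in controls and 1380.3, 1866 and 1312 CPM in crizotinib livers, with a log2 fold change of 0.78 (adjusted p = 0.425 by edgeR); it was named after its values were seen. The 2 subunits of the transfer complex thus had different fitted values, and that difference was not tested.

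Of 15 genes of HDL maturation and remodelling, 0 were called, and 4 higher and 1 lower had an unadjusted p under 0.05 (median log2 fold change 0.40). Abca1, the lipid exporter that forms nascent HDL with apolipoprotein A-I, was at 115, 103 and 122 CPM in controls and 610.4, 613 and 134 CPM in crizotinib livers (log2 fold change 2.0, adjusted p = 0.182 by edgeR). Saa3, Saa2 and Saa1 were the other 3 higher (6.43, 4.69 and 4.36, adjusted p of 0.143, 0.172 and 0.184 by edgeR). These 3 genes are also among the acute-phase reporters. Saa1 and Saa2 are near-identical in sequence, so reads may be split uncertainly between them. Pltp, the phospholipid transfer protein, was the lower one (-1.70, adjusted p = 0.280 by edgeR), chosen for mention after its values were seen.

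Of 9 genes of triglyceride-rich lipoprotein lipolysis, 0 were called and 1 had an unadjusted p under 0.05 (median log2 fold change -0.32). That was Angptl6, a member of the angiopoietin-like family, at 9.61, 2.77 and 8.60 CPM in controls and 0.425, 0.652 and 2.81 CPM in crizotinib livers (-2.42, adjusted p = 0.214 by edgeR). Fgf21 (1.98), Gpihbp1, the anchor of lipoprotein lipase (-1.07), and Lpl, the lipase (-0.87), did not pass.

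In the list of 10 other apolipoprotein genes, 0 were called and 1 had an unadjusted p under 0.05 (median log2 fold change -0.30). That was Apobr, which encodes a receptor and not an apolipoprotein, and is also the 1 lower gene counted in the receptor list. Apod was under 1.2 CPM in every library (1.64) and Apool had -0.29. Apol9b, named after its values were seen, was at 382, 420 and 241 CPM in controls and 15.1, 43.2 and 494 CPM in crizotinib livers, once more with crizotinib replicates 1 and 2 low and replicate 3 high; reads of it and of its near-identical copy Apol9a may be split uncertainly.

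Regulators of apolipoprotein genes numbered 33, of which 0 were called, and 5 higher and 3 lower had an unadjusted p under 0.05 (median log2 fold change -0.07). Ppara, the fatty-acid sensing receptor that regulates several apolipoprotein genes, was at 19.4, 24.5 and 19.5 CPM in controls and 7.43, 9.83 and 11.4 CPM in crizotinib livers (log2 fold change -1.14, adjusted p = 0.135 by edgeR). Srebf2, encoding SREBP2, had 1.33 (adjusted p = 0.143), Pparg 1.10 (adjusted p = 0.147) and the coactivator gene Ppargc1a 2.69 (adjusted p = 0.187). These 4 had the smallest p of the list. Over the whole list, 4 of 33 genes had groups that did not overlap with crizotinib higher and 4 with crizotinib lower, next to 10.7% and 10.3% of all tested genes. Hnf4a, a main activator of apolipoprotein genes in liver and named after its values were seen, was at 222, 337 and 243 CPM in controls and 671, 558 and 279 CPM in crizotinib livers (0.91, adjusted p = 0.369 by edgeR).

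**Figure D5:**
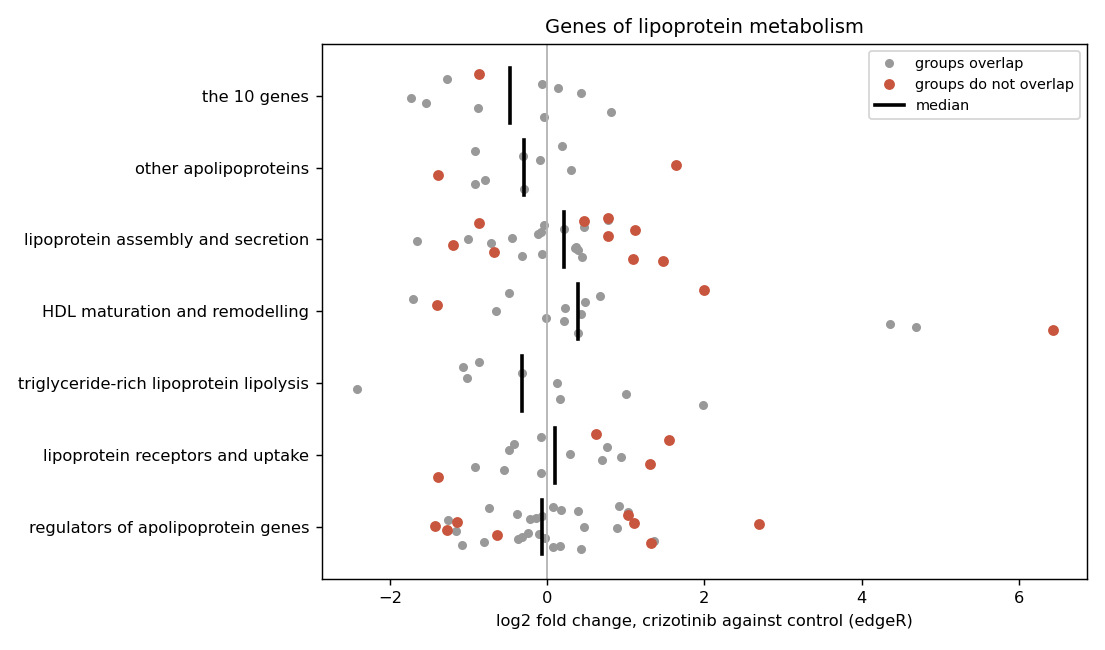
Each point is the edgeR log2 fold change of 1 gene, crizotinib against control, by list, with the list median as a vertical bar; red points are genes whose groups do not overlap. The median of the 10 genes is -0.47, and 1 of them (Apoa1) is red.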

How the data were processed

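RNA of 6 livers was sequenced after library construction with a SMARTer mRNA kit, per the labels' protocols. The authors deposited whole-number read counts per gene, not normalized, and FPKM values (fragments scaled for transcript length and depth), per the file headers. The aligner and the counter are not stated in the sources used here, nor is strand use. Positions are on GRCm38: 23362 of the 26060 identifiers found in GENCODE M21 had the same bounds there. The FPKM gene factors were within 1% of a common multiple of GENCODE exon length for 8120 of the 8282 genes that had over 200 counts throughout.

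Groups were taken from the treatment label. Library sizes were adjusted by TMM, and genes were filtered by filterByExpr (minimum count 10, total 15) and tested with edgeR 4.0.16 in R 4.3.3 (quasi-likelihood, two-sided, Benjamini-Hochberg over 16492 genes, threshold 0.05), with limma 3.58.1 and DESeq2 1.42.0 as alternatives. Other alternatives were DESeq2 size factors, no filter, limma on log2 FPKM with pseudocounts of 1 and 0.1, voom weights, a replicate block, removal of mitochondrially encoded genes, libraries left out and a length offset. The plan named edgeR for a table with counts. Log2 deviations used a prior count of 2. Single values were compared by exact permutation over 20 labelings. Steps were tested on simulated data. Sequences are RefSeq's, build GRCm38.p6.

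The 10 genes and all lists were chosen with earlier results of these data known. Named genes were the 10, called genes of each list and up to 4 more with the smallest p (2 for cell type markers), neighbours of both clusters and 3 most alike genes per member; genes named outside this rule are marked. A few genes that the rule selects are not reported here.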

Additional observations from a re-analysis of the deposited data

How the results depend on the processing

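The call on the 10 genes (0 called) was the same under 14 of the 16 other settings; limma voom with library weights called 3, and edgeR without both control replicate 1 and crizotinib replicate 3 called 1. The count of all genes called, 56 by edgeR, was 1105 by DESeq2, 3217 by voom with library weights and 1718 without both libraries, and 0 to 1504 when 1 library was left out (1504 without crizotinib replicate 3, 0 without control replicate 1 or 3 and 3 without any of the others). Pathway genes called, 1 by edgeR, were 36, 58 and 46 under the same 3 settings, 0 by limma on log2(FPKM + 1), and 0 to 48 with 1 library left out. Members called with 1 library left out ranged from 0 to 0. Ratios whose groups did not overlap, 0 of 9, ranged from 0 to 8, with no exact permutation p under 0.2. With a library left out, 0.2 is the smallest p that this test allows. Apoa1, Apoa2, Apoc1, Apoc3, Apoe, Apob and Apom kept the sign of their log2 fold change under all 16. Apoa4 (-0.07) was 0.000419 by limma on log2(FPKM + 1), 0.028 by voom and 0.055 with the length offset, an alternative chosen after seeing the data, and ranged from -0.52 to 0.23 with 1 library left out. Mttp (-0.04) was 0.15 and 0.16 by limma on log2(FPKM + 1) and log2(FPKM + 0.1), and ranged from -0.25 to 0.20. Apoa5 (0.13) ranged from -0.070 to 0.31, or to 0.33 by voom. With the replicate number as a replicate block, edgeR called 0 genes and 0 pathway genes, and 2068 genes had an unadjusted p under 0.05. The labels do not pair the numbers. Same-numbered libraries had deviations from their group mean correlated at -0.15, 0.16 and -0.09, where all pairs ran from -0.22 to 0.24. With 3 libraries per group these values cannot tell whether same-numbered libraries share a batch. With 1 library left out, the group of 2 was assumed to vary like the other. The cause of these changes was not tested. Having 3 libraries per group limits what could be called, and at this spread a change that misses the threshold is not shown to be absent.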
